A study of Danio rerio with 6 samples.

Results

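The genes described here are the zebrafish cytochrome P450 genes of families CYP1, CYP2, CYP3 and CYP4. Members were all genes whose symbol, looked up by Ensembl identifier with case ignored, is cyp followed by 1, 2, 3 or 4 and then a letter. Of 32520 genes listed, 54 had such a symbol, and 50 of them reached 0.5 TPM (a transcript level scaled for transcript length and library total) in at least 3 libraries. The kept genes were 5 of 5 in CYP1, 37 of 40 in CYP2, 4 of 5 in CYP3 and 4 of 4 in CYP4. Each of the 50 reached 0.5 TPM in all 3 libraries labelled +/+, and each except cyp2x10.1, which did so in 2, reached it in all 3 libraries labelled −/−. Below the filter stood cyp2x6 and cyp2k22, at most 0.022 and 0.035 TPM in any library, and cyp2k31, which ranged from 0.186 to 0.313 TPM under the +/+ label and from 0 to 0.061 TPM under the −/− label. The fourth, cyp3c2, reached 0.5 TPM in 2 libraries and had means of 0.521 and 0.504 TPM.

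Each sample was the RNA of 30 pooled larvae, whole and untreated, taken 5 days after fertilization. The labels give 3 libraries as (stim2a;stim2b)+/+, wild type at both genes, and 3 as (stim2a;stim2b)−/−, mutant at both; the mutant alleles, and whether the pools came from separate clutches, are not given in the labels, and a p-value here reflects no more than the spread among these samples. Both genes encode STIM2, a calcium sensor of the endoplasmic reticulum. Their RNA went against the labels: stim2a averaged 0.328 ± 0.075 TPM under the +/+ label and 1.31 ± 0.10 TPM under the −/− label, and stim2b 0.580 ± 0.128 and 1.57 ± 0.258 TPM (SD, n = 3 each). Under the +/+ label stim2a measured 0.329, 0.252 and 0.403 TPM, each below the filter of 0.5 TPM. It entered the test through the libraries labelled −/− alone, and its p-values carry that selection. For stim2b the values under the +/+ label, 0.542, 0.475 and 0.722 TPM, were near the filter. The limma adjusted p was 0.00226 for stim2a and 0.00905 for stim2b, and by exact permutation (two-sided) p was 0.1 for both, the smallest that 3 samples against 3 can give. The groups are therefore called libraries labelled +/+ and libraries labelled −/−, and every direction below is the libraries labelled −/− against those labelled +/+.

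Cytochrome P450 enzymes of these families sit in the membrane of the endoplasmic reticulum, hold a haem group, and insert an oxygen atom into small lipophilic molecules with electrons passed on by P450 oxidoreductase and cytochrome b5. Some CYP1 genes, cyp1a among them, are known as targets of the aryl hydrocarbon receptor (AHR). CYP2 and CYP3 enzymes are known as oxidisers of drugs, steroids and arachidonic acid in liver, gut and other organs. CYP4 enzymes are known as hydroxylases of fatty acids at the end of the chain. Fish carry CYP2 and CYP3 subfamilies that mammals lack, and many of these genes lie side by side as tandem copies.

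Of the 50 genes, 12 were higher, 10 were lower and 28 did not pass the test. A gene was called where its limma adjusted p, over all 22104 genes passing the same filter, was under 0.05. The 12 higher calls were 24% of the members, where 28.8% of all tested genes were called higher. The 10 lower calls were 20% of the members, where 8.56% of all tested genes were called lower. In either direction 44% of the members and 37.4% of all genes were called. The median log2 fold change was −0.03 over the members and 0.21 over all genes. After rescaling each library by the median ratio of its genes, which brings the median of all genes to 0.00, the members' median was −0.26, with 10 called higher and 19 lower against 20.9% and 21.3% of all genes. Of the 22 calls, 20 were kept in the same direction after this rescaling, and cyp2k21 and cyp4t8 were not. Quantile scaling kept 18, losing these and also cyp2p7 (log2 fold change 0.25, adjusted p = 0.146) and cyp2x8 (0.33, adjusted p = 0.0981). With quantile scaling 8 members were higher and 17 lower (19.5% and 19.7% of all genes), and with FPKM in place of TPM 12 and 16 (27.7% and 13.6%). With the replicate number as a block 15 were higher and 12 lower, where 43% and 12.8% of all genes were. In TPM as deposited the 2 groups of libraries did not overlap for 14 members that were higher and 14 that were lower (28% each). Of all genes 38.2% and 16.2% did not. By exact permutation (two-sided) p was 0.1 for each of these 28 members. In RNA from whole larvae, fewer cells of a type and less RNA per cell cannot be told apart.

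The calls rested on particular libraries. Without replicate 1 labelled +/+, 4 members were called higher and 4 lower (2.06% and 1.7% of all genes), and 831 of all genes were called in place of 8269. Without replicate 2 labelled +/+, 4 members were higher and 3 lower (1.64% and 1.6% of all genes), and 716 of all genes were called. Leaving out replicate 1 or replicate 3 labelled −/− gave 4508 and 4421 calls over all genes. The 7 members that kept their call without each of the 6 libraries in turn were cyp3a65, cyp2x9, cyp2ad6, cyp2ae1, cyp2k18, cyp2k6 and cyp2x10.1. On the first principal component of all tested genes (77.5% of the variance), replicate 3 scored −19.3 against −53.0 and −47.5 for the others labelled +/+, and 64.9 against 30.7 and 24.2 for the others labelled −/−. Without replicate 3 of both groups, 16 members were called higher and 10 lower, where 39.1% and 9.03% of all genes were.

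**Figure D1:**
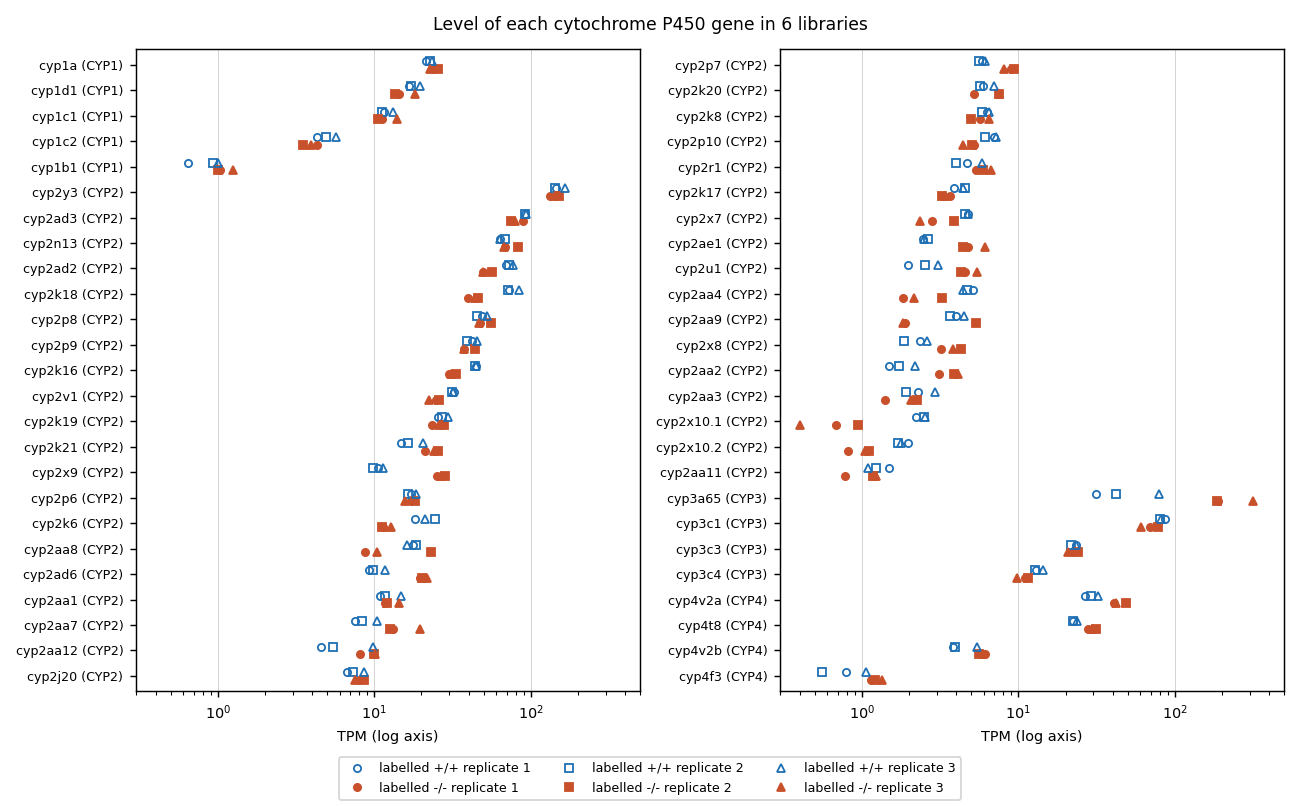
TPM (log axis) of each of the 50 kept genes in the 6 libraries, ordered by family and by mean level; open blue symbols are libraries labelled +/+, filled orange symbols are libraries labelled −/−, and the symbol shape gives the replicate number. The levels run from 0.977 TPM (cyp1b1) to 145.9 TPM (cyp2y3, means of 6 libraries), and cyp3a65 has the largest ratio between the group means (4.52-fold).

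In CYP1, whose best known member cyp1a is the classical AHR-induced gene, no gene passed the test with TPM as deposited, and the groups overlapped for all 5. Of all genes 37.4% were called, and 38.2% were higher and 16.2% lower with groups that did not overlap. The 2 most abundant members were cyp1a and cyp1d1. The gene cyp1a (ENSDARG00000098315.2, chromosome 18, 5588068 to 5598958) measured 21.4, 22.7 and 23.3 TPM under the +/+ label and 23.6, 25.4 and 22.6 TPM under the −/− label. These values lay within a narrow band, and their log2 fold change was 0.09 with a 95% interval of −0.12 to 0.30 (adjusted p = 0.462). The rescaling turned that value to −0.15, also uncalled.

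The second member, cyp1d1 (ENSDARG00000035569.5, chromosome 5, 25603761 to 25621386), whose human counterpart is a pseudogene, stood at 16.6, 17.2 and 19.7 TPM against 14.4, 13.6 and 18.3 TPM. Replicate 3 was the highest library under both labels, and the groups overlapped (log2 fold change −0.21, adjusted p = 0.231). Of the fish genes cyp1c1 and cyp1c2, the first had means of 11.9 TPM in both groups and the second had means of 4.95 ± 0.697 and 3.91 ± 0.410 TPM (SD, n = 3 each; log2 fold change −0.30, adjusted p = 0.119). The least abundant, cyp1b1, which in vertebrates also acts on retinoids and steroids, had means of 0.861 and 1.09 TPM. After the rescaling cyp1c2 and cyp1d1 were called lower (−0.52 and −0.44, adjusted p = 0.0105 and 0.0107), where 21.3% of all genes were. Their calls therefore depend on how the libraries are scaled.

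CYP2 held 37 kept genes, of which 9 were higher, 10 were lower and 18 did not pass the test. These were 24.3% higher and 27% lower, where 28.8% and 8.56% of all genes were. Its 2 most abundant members did not pass. The gene cyp2y3 (ENSDARG00000101423.2, chromosome 15, 16175 to 32151) measured 143.9, 142.9 and 164.4 TPM under the +/+ label and 131.5, 150.3 and 142.6 TPM under the −/− label. The groups overlapped, and the 95% interval of its log2 fold change, −0.29 to 0.12, spanned 0. The gene cyp2ad3 (ENSDARG00000022650.9, chromosome 20, 25548425 to 25551676) stood at 92.3, 92.1 and 93.5 TPM against 89.2, 75.1 and 79.5 TPM (log2 fold change −0.19, adjusted p = 0.107). Every library labelled −/− lay below those labelled +/+, by a small margin in replicate 1. With the rescaling both were called lower, at −0.32 and −0.43 (adjusted p = 0.0311 and 0.0154).

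Of the called CYP2 genes, the 5 with the largest change and with groups that did not overlap were cyp2x10.1, cyp2x9, cyp2ad6, cyp2aa4 and cyp2ae1. The first was lower: cyp2x10.1 (ENSDARG00000068283.6, chromosome 7, 52093291 to 52096498) measured 2.22, 2.48 and 2.52 TPM under the +/+ label and 0.685, 0.948 and 0.403 TPM under the −/− label. The libraries labelled +/+ were close together, and 1 of those labelled −/− lay below the filter of 0.5 TPM. Its log2 fold change was −1.33 ± 0.18 (SE, adjusted p = 0.00563), and the means differed 3.55-fold.

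The gene with the smallest p-value among the members was cyp2x9 (ENSDARG00000070775.3, chromosome 25, 17396263 to 17403598). It measured 10.6, 9.79 and 11.4 TPM under the +/+ label and 24.99, 28.3 and 26.8 TPM under the −/− label. The spread within each group was small beside the gap, and the means differed 2.52-fold (log2 fold change 1.29 ± 0.10, SE, adjusted p = 0.000413; 1.06 after the rescaling). CYP2X is a subfamily described in fish. The 3 kept members next to each other on chromosome 25 were all called, where 37.4% of all genes were. The neighbour cyp2x8 was higher, at 2.27 ± 0.373 and 3.77 ± 0.527 TPM, while cyp2x7 was lower, at 4.68 ± 0.127 and 2.996 ± 0.777 TPM (SD, n = 3 each). The calls of cyp2x8 and cyp2x7 were lost without replicate 1 or replicate 2 labelled +/+, and that of cyp2x7 also without replicate 1 or 3 labelled −/−, with a highest adjusted p of 0.0939 for cyp2x8 and 0.106 for cyp2x7. On chromosome 7 the neighbour of cyp2x10.1, cyp2x10.2, was lower as well, at 1.82 ± 0.135 and 0.993 ± 0.153 TPM, and was no longer called when replicate 1 or 2 labelled +/+ was left out (adjusted p up to 0.0711).

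The 11 genes that lie together on chromosome 20 are fish relatives of human CYP2J2, an enzyme known for making epoxides of arachidonic acid. In this group 2 genes were higher, 3 were lower and 6 did not pass the test. Of all genes 28.8% were higher and 8.56% lower. The gene cyp2ad6 (ENSDARG00000042956.6, 25525802 to 25533739) measured 9.24, 9.87 and 11.8 TPM under the +/+ label and 19.5, 20.2 and 21.8 TPM under the −/− label, a 1.99-fold difference (log2 fold change 0.96 ± 0.12, SE, adjusted p = 0.00321). Its next neighbour cyp2v1 was lower, at 31.9 ± 0.474 and 24.2 ± 1.72 TPM, as was cyp2ad2, at 72.7 ± 3.62 and 51.9 ± 3.93 TPM (SD, n = 3 each). The other calls of this group were cyp2p7, which was higher (5.84 ± 0.238 and 8.79 ± 0.590 TPM), and cyp2p10, which was lower (6.75 ± 0.566 and 4.91 ± 0.421 TPM). The remaining 6, cyp2n13, cyp2ad3, cyp2p6, cyp2p8, cyp2p9 and cyp2j20, had log2 fold changes of −0.19 to 0.16. The call of cyp2ad2 was lost without replicate 2 labelled +/+ (adjusted p = 0.0643), those of cyp2v1 and cyp2p7 without replicate 1 or 2 of that label (highest 0.0828 and 0.0723), and that of cyp2p10 without any 1 of the 6 libraries (highest 0.118). In the annotation cyp2v1 lies across cyp2ad6, cyp2ad2 and cyp2ad3, which are on the opposite strand. On its own strand cyp2p7 lies across 4 other members, so reads in the shared stretches could be given to either gene. For cyp2v1 this holds if strand was not used in assigning reads, which the sources used here do not state. The values of all these genes are therefore uncertain.

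On chromosome 23 the tandem group held 9 genes of CYP2AA, a subfamily that expanded in fish, and cyp2ae1. Of these 3 were higher, 1 was lower and 6 did not pass, where 28.8% of all genes were higher and 8.56% lower. The lower one, cyp2aa4 (ENSDARG00000098803.2, 42362337 to 42372651), measured 5.12, 4.72 and 4.40 TPM under the +/+ label and 1.84, 3.26 and 2.15 TPM under the −/− label (log2 fold change −0.88 ± 0.19, SE, adjusted p = 0.0167). Replicate 2 labelled −/− was the nearest to the other group. The gene cyp2ae1 (ENSDARG00000013524.10, 42643960 to 42666469) stood at 2.45, 2.63 and 2.51 TPM against 4.74, 4.44 and 6.12 TPM, a 2.02-fold difference (log2 fold change 0.88 ± 0.14, SE, adjusted p = 0.00967). Also higher were cyp2aa2, at 1.80 ± 0.349 and 3.70 ± 0.507 TPM, and cyp2aa7, at 8.77 ± 1.46 and 15.1 ± 3.86 TPM (SD, n = 3 each). Without replicate 1 or 2 labelled +/+, the calls of cyp2aa4, cyp2aa2 and cyp2aa7 were lost (highest adjusted p 0.0729, 0.0633 and 0.0978).

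Replicate 2 labelled −/− stood apart for 2 uncalled genes of this group, picked out after their values were seen. The gene cyp2aa8 measured 17.8, 18.4 and 16.1 TPM under the +/+ label and 8.67, 23.1 and 10.4 TPM under the −/− label. The gene cyp2aa9 stood at 3.98, 3.66 and 4.48 TPM against 1.87, 5.37 and 1.83 TPM. For both, replicate 2 labelled −/− was the highest of the 6 libraries and the other 2 of its group were the lowest. Without that library both were called lower (log2 fold change −0.84 and −0.94, adjusted p = 0.0139 and 0.0143). The annotation of cyp2aa8 overlaps cyp2aa7, cyp2aa11 and cyp2aa4 on the same strand. This makes its value and theirs uncertain, the calls of cyp2aa7 and cyp2aa4 included.

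The 8 CYP2K genes of chromosome 3 gave 1 higher call, 3 lower calls and 4 genes that did not pass. Of all genes 28.8% were higher and 8.56% lower. The subfamily is best known from fish, where zebrafish cyp2k6 oxidises aflatoxin. The most abundant, cyp2k18, was lower, at 76.1 ± 6.97 and 43.2 ± 3.26 TPM (log2 fold change −0.81, adjusted p = 0.0035), and cyp2k6 at 21.3 ± 3.20 and 11.8 ± 0.837 TPM (−0.82, adjusted p = 0.0086; SD, n = 3 each). Both kept their calls without each library in turn. The third lower gene, cyp2k16, stood at 44.4 ± 0.387 and 31.3 ± 1.90 TPM and did not stay called on leaving out replicate 1 or 2 labelled +/+ (adjusted p up to 0.0567). The single higher gene, cyp2k21, stood at 17.2 ± 2.91 and 23.6 ± 2.34 TPM, with a log2 fold change of 0.45 that was 0.22 and uncalled after the rescaling (adjusted p = 0.149); its call held without replicate 3 labelled +/+ and was lost without any other library (highest adjusted p 0.137). After the rescaling cyp2k17, cyp2k8 and cyp2k19 were called lower as well (−0.50, −0.33 and −0.32, adjusted p = 0.0116, 0.0291 and 0.0362). No CYP2K gene was then higher and 6 of the 8 were lower, where 20.9% and 21.3% of all genes were.

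**Figure D2:**
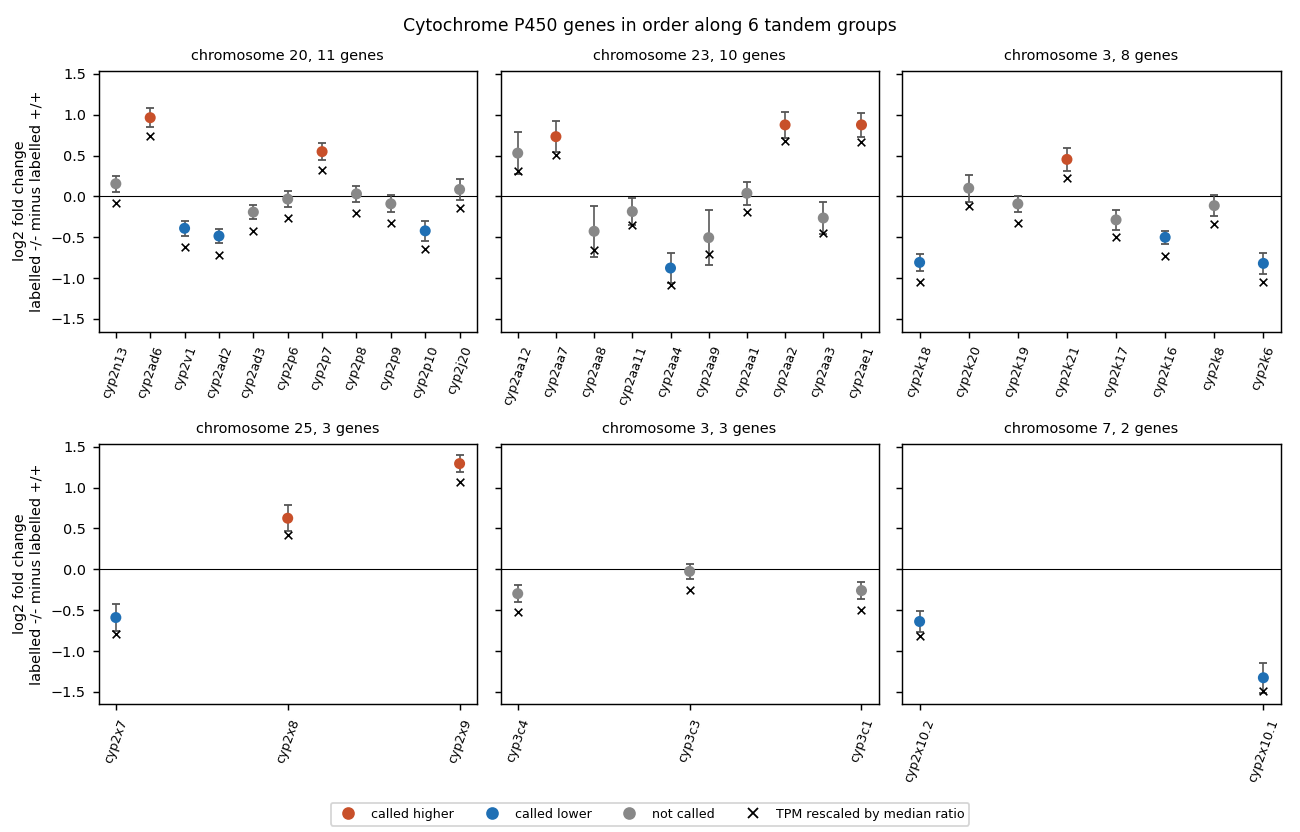
Log2 fold change (libraries labelled −/− minus libraries labelled +/+, y axis) of the kept genes of 6 tandem groups, in order of position along the chromosome (x axis); circles are limma values with TPM as deposited, bars are ±1 SE, colour gives the call, and crosses are the values after rescaling. Of 31 pairs of next neighbours, 2 were called in opposite directions and 3 in the same direction. The 2 opposite pairs are cyp2ad6 (0.96) and cyp2v1 (−0.39) on chromosome 20, and cyp2x7 (−0.59) and cyp2x8 (0.63) on chromosome 25. The annotations of cyp2ad6 and cyp2v1 overlap on opposite strands, and the calls of cyp2v1, cyp2x7 and cyp2x8 were lost on leaving out single libraries.

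Over all families, 37 of the 50 genes lay in tandem groups, defined as members no more than 200000 bases apart, and 13 lay alone. Among the 31 pairs of next neighbours in these groups, both genes were called in the same direction in 3 pairs and in opposite directions in 2. No such count over neighbours among all genes is given here, so these counts only describe the members. Another annotated gene overlapped 20 of the 50 members, on the same strand for 11 and on the opposite strand alone for 9. Of the 20, 8 were called, where 37.4% of all genes and 44% of the members were. How the authors assigned reads that match several near-identical copies and whether strand was used are details not given in the sources used here, and differences between tandem copies are therefore uncertain. The CYP2 genes outside these groups were cyp2y3, cyp2r1 and cyp2u1. The gene cyp2u1, whose human counterpart hydroxylates fatty acids, was higher, at 2.51 ± 0.543 and 4.76 ± 0.596 TPM (SD, n = 3 each), and was uncalled when either replicate 1 or 2 labelled +/+ was left out (adjusted p up to 0.0688). The vitamin D 25-hydroxylase gene cyp2r1 stood at 4.84 ± 0.964 and 5.99 ± 0.661 TPM and was not called (adjusted p = 0.172).

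CYP3 held the largest difference among the 50 genes. The gene cyp3a65 (ENSDARG00000103295.3, chromosome 1, 59338175 to 59348118), a zebrafish CYP3A gene known from larval liver and intestine and related to human CYP3A4, was 4.52-fold higher. It measured 31.3, 41.9 and 79.3 TPM under the +/+ label and 189.3, 185.3 and 314.9 TPM under the −/− label. The groups did not overlap, and replicate 3 was the highest library under both labels. The log2 fold change was 2.23 ± 0.34 (SE, adjusted p = 0.00774) and 2.00 after the rescaling, and it kept its call without each library in turn (highest adjusted p 0.0430).

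Markers of the gut differed between the same libraries. Of 13 enterocyte markers 8 were higher and 1 was lower, where 28.8% and 8.56% of all genes were. Their median log2 fold change was 0.53, against 0.21 for all genes. After the rescaling 5 were higher and 1 was lower, where 20.9% and 21.3% of all genes were. The microvillus protein gene vil1 measured 29.7, 37.8 and 66.6 TPM under the +/+ label and 117.7, 129.2 and 193.0 TPM under the −/− label. Replicate 3 was thus the highest library under both labels, as for cyp3a65. This was not particular to the gut, since markers of pronephros and neurons, cubn and elavl3 among them, had it too. Replicate 3 was also the highest of each group on the first principal component of all tested genes. The peptide transporter genes slc15a1b and slc15a1a, the bile acid binding protein gene fabp6, the chitinases chia.1 and chia.2, the transcription factor gene cdx1b and the lipid transfer gene mttp were also higher, and apoa4a was lower. The fatty acid binding protein gene fabp2 was not called, at a log2 fold change of −0.09 (adjusted p = 0.355). Without replicate 1 labelled +/+ 5 of the 13 were called higher and none lower (2.06% and 1.7% of all genes). Without replicate 2 labelled +/+ 2 were higher and none lower (1.64% and 1.6% of all genes). The 13 markers summed to 3134 to 3913 TPM under the +/+ label and to 3442 to 4268 TPM under the −/− label, and no marker was at 0 in all libraries. Of 16 hepatocyte markers 2 were higher and 4 were lower, with a median of −0.10 and a summed level of 13034 to 14892 TPM against 10907 to 14436 TPM; on leaving out those libraries 3 and 0 were lower and none higher, and after the rescaling none was higher and 5 were lower. With TPM as deposited the lower ones were the larval liver fatty acid binding protein gene fabp10a (log2 fold change −0.45, adjusted p = 0.00967), ambp, tfa and hpxb. The higher ones were cp (0.53, adjusted p = 0.0260) and serpina1 (0.39, adjusted p = 0.0277), and the other 10 were not called. The part of these markers in the difference of cyp3a65 was not tested.

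**Figure D3:**
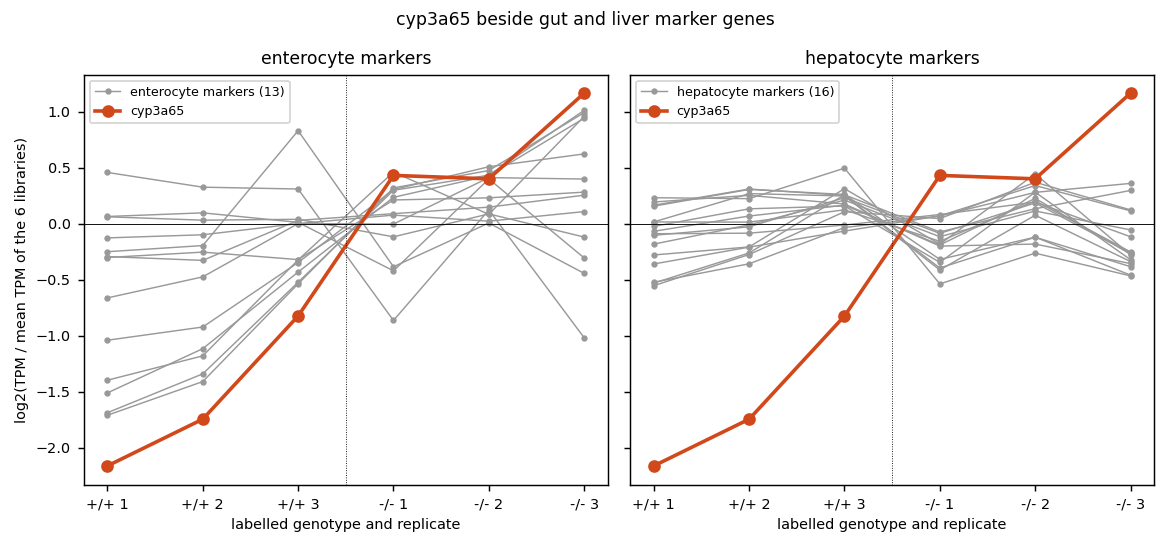
Log2 of each gene's TPM over its mean in the 6 libraries (y axis) in each library (x axis, labelled genotype and replicate); the orange line is cyp3a65 and grey lines are 13 enterocyte markers (left) and 16 hepatocyte markers (right). Lines join the values of 1 gene and imply no order of replicates. Several enterocyte markers, vil1 among them, lie low in the libraries labelled +/+ and high in those labelled −/−, as cyp3a65 does, while the hepatocyte markers span a narrower range.

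The other 3 kept CYP3 genes belong to CYP3C, a fish subfamily, and lie together on chromosome 3; none was called. The most abundant, cyp3c1 (ENSDARG00000015575.8, 40969242 to 40976582), measured 85.9, 80.5 and 81.9 TPM under the +/+ label and 69.3, 78.4 and 60.6 TPM under the −/− label. Its groups did not overlap, and the log2 fold change was −0.26 (95% interval −0.50 to −0.02, adjusted p = 0.0807). The gene cyp3c4 likewise had groups that did not overlap, at 13.4 ± 0.823 and 10.8 ± 0.889 TPM (SD, n = 3 each; log2 fold change −0.30, adjusted p = 0.0586), and cyp3c3 had means of 22.7 and 22.3 TPM. With the replicate number as a block, cyp3c1 and cyp3c4 were called lower (adjusted p = 0.0394 and 0.0356), and after the rescaling without the block they were as well (−0.50 and −0.52, adjusted p = 0.0281 and 0.0114). Without replicate 2 labelled −/−, cyp3c1 was called lower (adjusted p = 0.0341).

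In TPM as deposited all 4 CYP4 genes had higher values in every library labelled −/− than in any labelled +/+. Of all tested genes 38.2% did. Overlap between the groups after the rescaling is not given here. Of the 4, 2 were called higher, where 28.8% of all genes were. The gene cyp4v2a (ENSDARG00000062132.6, chromosome 1, 17900306 to 17912645), whose human counterpart CYP4V2 hydroxylates fatty acids and is mutated in Bietti crystalline dystrophy of the retina, measured 26.8, 29.0 and 32.2 TPM under the +/+ label and 40.7, 48.6 and 42.0 TPM under the −/− label. It was 1.49-fold higher (log2 fold change 0.57 ± 0.11, SE, adjusted p = 0.0133; 0.34 after the rescaling). In the deposited coordinates it lies 3.41 Mb from stim2a and is the single member within 5 Mb of a targeted gene. In all, 6 members lie on the chromosome of a targeted gene. On that of stim2a are also cyp2u1 and cyp3a65, at 35.4 and 44.85 Mb. On that of stim2b are cyp2x10.1, cyp2x10.2 and cyp2r1, at 10.2, 10.4 and 34.6 Mb. All of these but cyp2r1 were called, where 37.4% of all genes were. The part of position in these calls was not tested.

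The fish gene cyp4t8 (ENSDARG00000004964.10, chromosome 16, 4615661 to 4640578) stood at 22.3, 22.3 and 23.6 TPM against 28.0, 31.1 and 29.6 TPM, a 1.299-fold difference (log2 fold change 0.37, adjusted p = 0.0201). The spread within its groups was small, but after the rescaling the value was 0.14 and not called (adjusted p = 0.279). The paralog cyp4v2b stood at 4.38 ± 0.884 and 5.89 ± 0.283 TPM and missed the threshold (adjusted p = 0.0635), as did cyp4f3, related to the human leukotriene B4 hydroxylase gene, at 0.801 ± 0.253 and 1.24 ± 0.096 TPM (SD, n = 3 each; adjusted p = 0.0687). With the replicate block both were called higher (adjusted p = 0.0238 and 0.0352), where 43% of all genes were. Neither was called after the rescaling (adjusted p = 0.189 and 0.147) or with quantile scaling (adjusted p = 0.56 and 0.134). With the block and the rescaling together neither was called (adjusted p = 0.171 and 0.141). The calls of cyp4v2a and cyp4t8 were lost without replicate 1 or replicate 2 labelled +/+ (highest adjusted p 0.0662 and 0.0902). This left no call in the family. Without replicate 3 labelled +/+ all 4 genes were called higher, where 8112 of all genes were in place of 6376.

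The 50 genes summed to 1077, 1093 and 1221 TPM under the +/+ label and to 1167, 1277 and 1321 TPM under the −/− label, between 0.108% and 0.132% of all TPM. The sums overlapped between the groups, but their make-up differed. The most abundant member was cyp2y3 in each library labelled +/+ and cyp3a65 in each labelled −/−. The share of cyp3a65 in the sum was 2.91%, 3.83% and 6.49% under the +/+ label and 16.2%, 14.5% and 23.8% under the −/− label. The share of CYP2 was 73.5% to 75.7% and 58.8% to 65.6%, while its sum was 845.6 ± 45.0 and 786.1 ± 47.4 TPM (SD, n = 3 each), with libraries that overlapped. Without cyp3a65 the sums were 1080 ± 54.0 and 1025 ± 59.5 TPM (SD, n = 3 each), in TPM as deposited a difference within the spread of the groups. The CYP4 sum was 57.3 ± 4.49 and 80.5 ± 5.39 TPM, with no overlap, and the CYP1 sum 58.0 ± 4.38 and 56.2 ± 3.26 TPM. All these sums are of TPM as deposited, and none is given after the rescaling. The rescaling divided the libraries by 0.870, 0.886 and 1.016 under the +/+ label and by 1.075, 1.024 and 1.164 under the −/− label. Whether sums overlap can therefore depend on how the libraries are scaled.

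**Figure D4:**
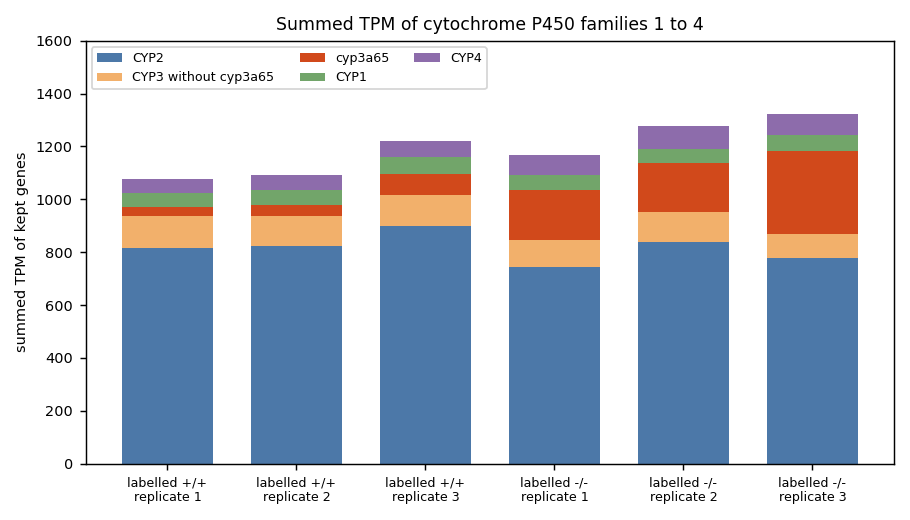
Summed TPM of the 50 kept genes in each library (y axis, from 0), stacked by family, with cyp3a65 shown apart from the rest of CYP3. In TPM as deposited the totals overlap between the labels, while the cyp3a65 segment spans 31.3 to 79.3 TPM under the +/+ label and 185.3 to 314.9 TPM under the −/− label.

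Genes that serve the P450 system were read from the same fit. Of 10 redox partner genes 2 were higher and 5 were lower, with a median log2 fold change of −0.20. Of all genes 28.8% were higher and 8.56% lower, with a median of 0.21. The lower ones were the cytochrome b5 reductase genes cyb5r2 (66.6 ± 1.64 and 39.7 ± 6.198 TPM; log2 fold change −0.75, adjusted p = 0.00915) and cyb5r3, the cytochrome b5 genes cyb5a and cyb5b (26.9 ± 0.591 and 21.3 ± 0.666 TPM; −0.33, adjusted p = 0.0229), and pgrmc1 (90.5 ± 2.67 and 72.7 ± 3.29 TPM; −0.31, adjusted p = 0.0211; SD, n = 3 each), whose human protein binds haem and P450s. The higher ones were porb, a P450 oxidoreductase gene, and pgrmc2, while the other oxidoreductase gene, pora, stood at 30.4 TPM in both groups. The groups overlapped for porb, at 16.7, 18.3 and 26.4 TPM against 29.0, 25.9 and 37.7 TPM (log2 fold change 0.59, limma adjusted p = 0.0476). The calls of porb, pgrmc2, cyb5r3 and cyb5b were lost without replicate 1 or 2 labelled +/+. They were also lost without replicate 1 or 3 labelled −/−. On leaving out single libraries, the call of cyb5a held only without replicate 1 labelled −/−. That of pgrmc1 was lost without replicate 1 or 2 labelled +/+, and that of cyb5r2 without replicate 2 of that label. After the rescaling none of the 10 was higher and 7 were lower, where 20.9% and 21.3% of all genes were. Of 15 genes of haem synthesis and breakdown 2 were higher and 6 were lower, before and after the rescaling; hmbsb, an early enzyme of haem synthesis, was lower (14.8 ± 0.633 and 7.93 ± 0.600 TPM; −0.86, adjusted p = 0.003), as was blvrb (−0.52), and the haem oxygenase gene hmox2b was higher (0.70). Of 6 red cell markers none was higher and 2 were lower, the carbonic anhydrase gene cahz (−0.90) and the globin gene hbae3 (−0.55), and 5 were lower after the rescaling. The list of haem genes shares alas2 with these markers, and their part in the haem calls was not tested. With the replicate block 4 of the haem genes were higher and 6 lower, where 43% and 12.8% of all genes were. Leaving out replicate 1 labelled +/+ left 1 lower call in each of the redox and haem lists and no higher call. Of all genes 1.7% were then lower and 2.06% higher. Leaving out replicate 2 labelled +/+ left 1 lower call in the haem list and no call in the redox list. Of all genes 1.6% were then lower and 1.64% higher.

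Regulators of P450 genes were read against the 28.8% of all genes that were called higher and the 8.56% called lower. After the rescaling these shares were 20.9% and 21.3%. Of 10 tested genes of the AHR pathway 5 were higher and none was lower (ahrra and ahrrb were below the filter); after the rescaling 5 were higher and 2 lower. The AHR partner gene arnt stood at 2.08 ± 0.458 and 7.68 ± 1.81 TPM (SD, n = 3 each; log2 fold change 1.66, adjusted p = 0.00321), and the receptor genes ahr1b (1.01) and ahr1a (0.60), arnt2 and tiparp were higher too. The receptor gene ahr2, known to mediate cyp1a induction in zebrafish, was not called (log2 fold change 0.34, adjusted p = 0.0945) but was called higher with the replicate block (adjusted p = 0.00746), where 7 genes of the pathway were higher and 1 was lower. After the rescaling its value was 0.11, uncalled. The gene cyp1a was not called with or without the block. Of 29 nuclear receptors and transcription factors of liver and gut 13 were higher and 1 was lower (median 0.40); after the rescaling these were 11 and 3. The 3 with the smallest p, foxa1 (1.29), hnf1bb (1.38) and hnf4g (1.25), were higher. With the replicate block 20 were higher and 2 lower. In that fit, which also gave the AHR count with the block, 43% of all genes were higher and 12.8% lower. Without replicate 1 labelled +/+ 1 AHR pathway gene and 1 of these 29 were called (2.06% of all genes higher and 1.7% lower). Without replicate 2 labelled +/+ these counts were 1 and none (1.64% and 1.6% of all genes).

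Among enzymes that conjugate P450 products more were lower than higher, while 28.8% of all genes were higher and 8.56% lower. Among UDP-glucuronosyltransferases (UGT) 1 of 29 was higher and 9 were lower, among sulfotransferases (SULT) none of 18 was higher and 7 were lower, and among glutathione transferases (GST) none of 21 was higher and 9 were lower. Their median log2 fold changes were −0.19, −0.18 and −0.17, against 0.21 for all genes. By smallest p the named genes were ugt2b5 (−1.05), ugt5a2 (0.67) and ugt1a1 (−0.40), sult1st7 (−2.63), sult3st4 (−1.22) and sult4a1 (−0.57), and mgst2 (−1.02), gstp1.1 (−0.73) and gstm.3 (−1.19). The sulfotransferase sult1st7 stood at 3.32 ± 0.360 and 0.123 ± 0.113 TPM, and mgst2 at 55.3 ± 1.01 and 27.0 ± 2.65 TPM (SD, n = 3 each). Under the −/− label sult1st7 measured 0.147, 0 and 0.221 TPM, so it passed the filter of 0.5 TPM through the libraries labelled +/+ alone. After the rescaling 17 UGT, 10 SULT and 11 GST genes were lower, where 21.3% of all genes were. The higher calls were unchanged in number (20.9% of all genes). Of the transporters of drugs and bile 11 of 21 were higher and none was lower (7 and none after the rescaling; median 0.43), and the efflux pump genes abcg2b (1.21), abcg2a (1.31) and abcb4 (1.57) had the smallest p. Without replicate 1 labelled +/+ the lower calls were 1 UGT, 2 SULT and 2 GST genes (1.7% of all genes). The higher calls were 5 transporters (2.06% of all genes). Without replicate 2 labelled +/+ the lower calls were 2, 3 and 3 genes (1.6% of all genes) and the higher calls 4 transporters (1.64%). Of the 13 enterocyte markers described beside cyp3a65, 8 were higher in the same libraries, 1 was lower and 4 were not called, and their part in these calls was not tested.

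Other oxidising enzymes showed no single direction. Among 7 flavin monooxygenase, epoxide hydrolase and aldehyde oxidase genes (FMO, EPHX and AOX) fmo5 and ephx4 were higher and aox5 was lower. After the rescaling 1 of the 7 was higher and 3 were lower, where 20.9% and 21.3% of all genes were. The value of fmo5 fell from 0.39 to 0.16 and was no longer called (adjusted p = 0.283), nor was it with quantile scaling or FPKM. Of 13 eicosanoid genes 1 was called, ptgdsb.1, which was lower (log2 fold change −0.35, adjusted p = 0.0345); 5 were lower after the rescaling, and 2 were higher and 4 lower with the replicate block. Of 30 tested P450 genes outside families 1 to 4, 6 were higher and 4 lower, against 28.8% and 8.56% of all genes, with a median of 0.20 against 0.21. After the rescaling the balance turned, to 4 higher and 6 lower. The vitamin D catabolic gene cyp24a1 stood at 2.99 ± 0.690 and 12.0 ± 2.29 TPM (SD, n = 3 each; log2 fold change 1.84, adjusted p = 0.00159), cyp17a2, a steroid 17-hydroxylase gene, was higher (0.489 ± 0.069 and 1.64 ± 0.399 TPM) and the sterol 27-hydroxylase gene cyp27a1 was lower (−0.66). Under the +/+ label cyp17a2 measured 0.568, 0.455 and 0.445 TPM, near the filter of 0.5 TPM. With the replicate block 10 of these 30 were higher and 6 lower, where 43% and 12.8% of all genes were. Without replicate 1 labelled +/+ 2 were higher and 1 lower (2.06% and 1.7% of all genes). Without replicate 2 labelled +/+ 2 were higher and none lower (1.64% and 1.6% of all genes). Of the 31 genes named by smallest p in the lists, 13 kept their call without each library in turn: hmbsb, arnt, abcg2b, abcg2a, abcb4, ugt2b5, sult1st7, sult3st4, mgst2, gstp1.1, aox5, cyp24a1 and cyp17a2. The other 18 did not, with adjusted p up to 0.14. Among the 13, sult1st7 was tested through the libraries labelled +/+ alone, and leaving out a library does not remove that selection. With quantile scaling ugt5a2, fmo5 and ephx4 were not called. The member cyp2r1, which makes the vitamin D form that precedes the hormone, was not called.

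**Figure D5:**
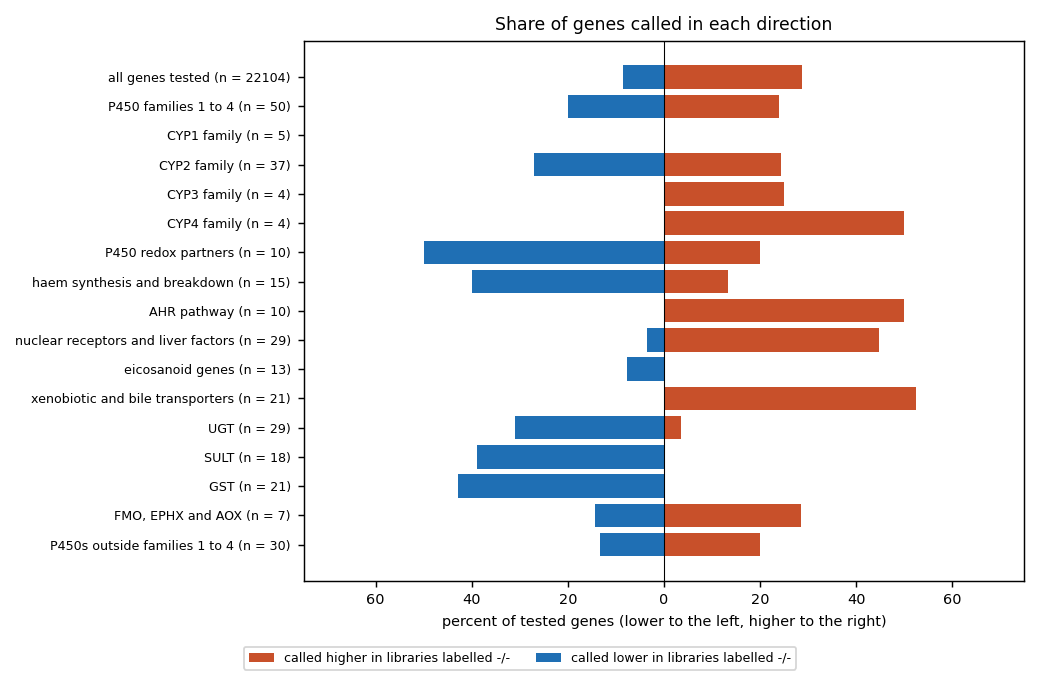
Percent of tested genes called higher (to the right) or lower (to the left) in the libraries labelled −/− for all genes tested, for the 50 P450 genes and their families, and for lists of genes around the P450 system; n is the number of genes tested. The P450 families 1 to 4 have 24% higher and 20% lower, against 28.8% and 8.56% of all genes.

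Other tissues of the larva were represented too, since markers of pronephros (9 of 11 higher, none lower), exocrine pancreas (6 of 13 higher, none lower), neurons (7 of 10 higher, 1 lower), endothelium (4 of 7 higher, 1 lower), keratinocytes (1 of 10 higher, 3 lower) and red cells (none of 6 higher, 2 lower) were detected, where 28.8% of all genes were higher and 8.56% lower. After the rescaling higher and lower calls were 7 and 0 for pronephros, 4 and 0 for exocrine pancreas and 6 and 2 for neurons. They were 3 and 1 for endothelium, 1 and 5 for keratinocytes and 0 and 5 for red cells. Of all genes 20.9% were then higher and 21.3% lower. Their summed levels were 93.3 to 127.7 against 150.9 to 194.4 TPM for pronephros, 7368 to 9895 against 11047 to 16186 TPM for exocrine pancreas, 1009 to 1179 against 1214 to 1580 TPM for neurons, 25.4 to 33.4 against 37.3 to 48.8 TPM for endothelium, 18093 to 20122 against 15026 to 16180 TPM for keratinocytes and 2291 to 3413 against 1905 to 2209 TPM for red cells, under the +/+ and the −/− label. Without replicate 1 labelled +/+ 2 pancreas and 1 neuron marker were called higher (2.06% of all genes). Without replicate 2 labelled +/+ 1 pancreas and 1 endothelium marker were (1.64% of all genes). The lower calls were then 1 keratinocyte marker each time and 1 and 2 red cell markers (1.7% and 1.6% of all genes). The part of these tissues in the P450 differences was not tested.

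In the authors' deposited table, 27 of the 50 members had an adjusted p under 0.05, 10 with a negative and 17 with a positive log2 fold change, where 18.4% and 13.5% of the genes with an adjusted p in that table had one. Of the 22 members called by limma, 20 were among these 27. The sign in the authors' deposited table was the opposite of the limma sign for all 22; that table does not state which group is the numerator. For cyp3a65, cyp2x9 and cyp2x10.1 the authors' deposited table gives log2 fold changes of −1.62 ± 0.319, −1.12 ± 0.111 and 1.88 ± 0.284 (± SE).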

How the data were processed

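Polyadenylated RNA of 6 pools of whole larvae was sequenced as stranded paired reads of 75 bases, per the labels' protocols. Each library had a gene table of coverage, FPKM and TPM in the layout that StringTie writes, per the file headers. In those deposited tables coverage is the mean signal over a gene's bases, FPKM is corrected for both length and sequencing depth, and TPM adds up to 1000000 in each. The authors' deposited comparison lists, per its file header, the mean normalized signal, log2 fold change, p-values and 2 scores (the standard error and the Wald statistic) under DESeq2's column names. Tools listed in the submitters' processing notes are StringTie 1.3.3b, STAR 2.5.3a, DESeq2 1.16.1 and, as builds, danRer11 and hg38; they give no roles. Coordinates are those of the deposited tables, and only those notes name a build.

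Symbols came from a table of Ensembl identifiers (29201 of 32520 genes matched). Of 6 members with an upper-case family symbol, 3 were named as a paralog through RefSeq genes of assembly GRCz12tu and the others in lower case. limma 3.58.1 (R 4.3.3; lmFit, eBayes with trend) was fitted on log2(TPM + 0.5) for the 22104 genes that reached 0.5 TPM in 3 or more libraries, with Benjamini-Hochberg adjustment over all of them. Fold changes are on that scale, where changes of low genes come out too small; ratios are of mean TPM. The fit was tested on simulated data. Python 3.11.15, pandas 2.3.3, SciPy 1.17.1 and matplotlib 3.10.9 were used. Depth is not known from TPM; the ratio of coverage to FPKM, a measure of relative depth, was 4.64 to 5.93.

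The members and gene lists were chosen with earlier results of these data known. Values in every library are given, per family, for the 2 most abundant members and up to 5 called members with the largest change and groups without overlap; of each list, called genes with the 3 smallest p are named. Others were added after their values were seen, as were all members of a list named without a value. Same-numbered libraries correlated at 0.22, 0.17 and 0.44 in their deviations from the group means, which passed the rule of every correlation over 0.1. The labels name no shared clutch or day, so the pairing rests on the data alone, and replicate 2 labelled −/− was the better match of replicate 1 labelled +/+ (0.25). With the number as a block 15 members were higher and 12 lower. Alternatives were other pseudocounts, filters, scalings, FPKM, the block, a threshold of 0.01 and leaving out libraries.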

Additional observations from a re-analysis of the deposited data

How the results depend on the processing

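All 22 calls were kept with pseudocounts of 0.1 and 1 TPM, with FPKM and with the replicate block, and 20 with no filter on low values. Over 885 values of single members under other settings, 735 kept their direction and side of the threshold, 64 lost and 52 gained a call, and 34 changed sign. Counts that moved were as follows. Requiring a mean of at least 5 TPM took genes of lower mean out of the test. It gave 5238 calls over all genes, 6 lower members and 11 CYP2 calls. The 14 called members that stayed in the test all kept their call and direction. An adjusted p under 0.01 gave 741 calls over all genes, 4 members higher and 4 lower, 7 CYP2 calls and none in CYP4. Rescaling by the median ratio gave 19 lower members, 2 CYP1, 3 CYP3 and 1 CYP4 call and a member median of −0.26. Quantile scaling kept 18 of the 22 calls and gave 17 lower, 3 CYP1, 2 CYP3 and 1 CYP4 call and a median of −0.20. FPKM gave 16 lower, 2 CYP1 and 3 CYP3 calls and a median of −0.12. The replicate block gave 12344 calls over all genes, 12 lower and 15 higher members, 3 CYP3 and 4 CYP4 calls. With the block and the rescaling together there were 24 lower members, 3 CYP1, 4 CYP3 and 1 CYP4 call and a median of −0.26. In that fit 9 members were higher, and of all 22104 tested genes 6012 were higher and 6090 lower. Leaving out 1 library at a time gave 716 to 9820 calls over all genes, 4 to 16 higher and 3 to 12 lower members, 6 to 20 CYP2, 1 to 2 CYP3 and 0 to 4 CYP4 calls, and no CYP1 call; fewer samples enter each such fit. Without replicate 3 of both groups there were 10633 calls over all genes, and 1 CYP1 gene and 4 CYP4 genes were called. The block changed the call of 5 members: cyp3c1, cyp3c4, cyp4v2b and cyp4f3, given with their families, and cyp2aa12, which was then higher (adjusted p = 0.0264).

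The values that changed sign belonged to 10 uncalled members. After rescaling, with or without the block, they were −0.15 for cyp1a, −0.0797 for cyp2n13, −0.20 for cyp2p8, −0.14 for cyp2j20, −0.19 for cyp2aa1 (called with the block, adjusted p = 0.0437) and −0.12 for cyp2k20. With quantile scaling they were −0.0648 for cyp1a, −0.0453 for cyp2p8, −0.20 for cyp2j20, −0.21 for cyp2aa1, −0.20 for cyp2k20 and −0.0259 for cyp2r1. With FPKM they were −0.0118 for cyp1a, −0.0677 for cyp2p8, −0.00831 for cyp2j20 and −0.0568 for cyp2aa1. On leaving out libraries the values ran from −0.13 to 0.0622 for cyp1c1, from −0.0832 to 0.0681 for cyp2p6, from −0.0449 to 0.13 for cyp2p8, from −0.0527 to 0.16 for cyp2aa1 and from −0.0735 to 0.0427 for cyp3c3. The cause was not tested. Merging genes with near-identical proteins was planned and not run, since no protein sequences were used here. Depth is not known from TPM, so no floor from counts can be set for members near 0.5 TPM.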
